A study of Mus musculus with 6 samples.

Results

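The 10 genes Pparg, Cebpa, Cebpb, Cebpd, Klf15, Klf4, Rxra, Ebf1, Zfp423 and Stat5a encode transcription factors that act in the formation of fat cells. They were taken by gene name from a table of 57180 genes, and each name matched 1 row. All 10 reached the mean of at least 1 TPM that was required for testing, as did 15446 genes in all. RNA sequencing had been done on inguinal white adipose tissue, the subcutaneous fat of the groin, of male mice labelled wild type. Mice of the HEP group ate a high-fat diet with 0.5% hesperidin, a flavonoid glycoside of citrus peel, and mice of the HFD group ate the high-fat diet alone, in both groups for 12 weeks. Each group had 3 samples, and all carried the same batch label. A control diet that the series describes was not analysed here, so both groups share the high-fat diet. The labels do not say whether each sample came from its own animal, and p-values therefore measure only the spread between these samples. TPM, the authors' abundance scaled by transcript length and library total, keeps no read depth, so the depth behind each value is unknown.

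Adipogenesis runs as a relay of transcription factors, known mainly from mouse cell lines. C/EBPβ and C/EBPδ, together with KLF4, appear early after the hormonal stimulus, and they switch on PPARγ and C/EBPα, which then maintain each other and the genes of the mature fat cell. PPARγ is a nuclear receptor that binds DNA as a pair with the retinoid X receptor RXRα, the product of Rxra. KLF15, EBF1 and STAT5A raise Pparg expression during differentiation, and ZFP423 marks committed preadipocytes and holds back the heat-producing programme in white fat.

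Promoter windows of RefSeq (GRCm38.p6, 250 bases before to 50 bases after an annotated start) were found for 9 of the 10 genes, 15 windows in all, with Cebpd not matched. Those of Pparg, Cebpa and Klf15 are shown because these 3 genes had the lowest log2 fold changes on log2(TPM + 1), HEP minus HFD, and the marked motif of each was chosen after the matches were seen. Each window is on the plus strand and is given from its 5′ end. For Pparg the most downstream of 3 annotated starts is shown, since the adipocyte form of PPARγ is known to start at a downstream promoter, and the capitals are matches to the C/EBP motif TTNNGCAA on either strand (TTGCNNAA on the other). For Cebpa the capitals are the C/EBP half-site TTGCG, and for Klf15 they are the E-box CACGTG, the motif bound by clock and related factors.
Pparg, chr6:115421816-115422115: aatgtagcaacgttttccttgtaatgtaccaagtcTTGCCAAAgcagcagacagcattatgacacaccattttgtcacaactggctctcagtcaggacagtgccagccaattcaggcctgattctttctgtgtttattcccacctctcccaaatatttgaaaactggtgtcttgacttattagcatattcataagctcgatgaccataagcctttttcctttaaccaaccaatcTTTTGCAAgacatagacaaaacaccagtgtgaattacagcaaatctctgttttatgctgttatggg
Cebpa, chr7:35119043-35119342: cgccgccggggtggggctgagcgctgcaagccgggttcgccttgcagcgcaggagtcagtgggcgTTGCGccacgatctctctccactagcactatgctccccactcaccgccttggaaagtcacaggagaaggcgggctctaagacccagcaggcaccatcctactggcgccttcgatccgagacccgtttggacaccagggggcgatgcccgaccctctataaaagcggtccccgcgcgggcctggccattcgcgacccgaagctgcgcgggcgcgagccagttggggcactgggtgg
Klf15, chr6:90462326-90462625: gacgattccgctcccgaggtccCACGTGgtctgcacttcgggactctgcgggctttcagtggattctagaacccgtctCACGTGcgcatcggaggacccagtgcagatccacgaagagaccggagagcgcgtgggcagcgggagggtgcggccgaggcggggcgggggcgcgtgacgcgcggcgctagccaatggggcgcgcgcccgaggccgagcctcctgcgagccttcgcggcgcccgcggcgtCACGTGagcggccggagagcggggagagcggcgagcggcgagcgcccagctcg

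The Pparg window held 2 matches to the C/EBP motif, TTGCCAAA in its distal part and TTTTGCAA just before the start site, and 10.8% of all 32851 windows held at least 1. Of the member windows 2 of 15 held this motif, the other being the more upstream window of Zfp423. The half-site was found in 3 of 15 member windows, in Cebpa, Rxra and Ebf1, and in 17.4% of all windows. It can lie within a longer C/EBP match but did not do so in the Cebpa window. The Klf15 window held 3 E-boxes, a palindrome counted once per site, against at least 3 in 0.0883% of all windows and at least 1 in 7.15%. Klf4 held 1 E-box. The DR1 element of PPARγ and RXR, the STAT motif TTCNNNGAA and the palindromic EBF motif, searched on both strands, were found in 0 of the 15 member windows and in 0.381%, 8.30% and 0.904% of all windows. The SP/KLF box GGGCGGG was found in 6 of 15 member windows and in 25.6% of all. The CCAAT box was found in 3 of 15 and in 37.4% of all, and the TATA box TATAAA in 3 of 15 and in 13.6% of all. No other motif was searched. None of the marked matches overlapped a match of another of these motifs. The table holds 1 value per gene, so the start sites in use could not be told apart.

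The libraries differed in cell content. Summed over 15 adipocyte markers, TPM was 34383, 54793 and 32610 in HEP replicates 1 to 3 and 54471, 56767 and 44283 in HFD replicates 1 to 3, and its defining marker Adipoq, the gene for adiponectin, lay between 2151 and 3926 TPM in HEP and between 2891 and 4211 TPM in HFD. Plin1, of the lipid droplet coat, lay between 446 and 867 TPM in HEP and between 728 and 971 TPM in HFD. The sum of 13 B and plasma cell markers was 1373, 10.2 and 1483 TPM in HEP and 9.69, 9.66 and 712 TPM in HFD, and that of 14 T and NK cell markers was 965, 18.1 and 1026 TPM in HEP and 11.9, 23.6 and 712 TPM in HFD. Cd3e, of the T cell receptor complex, lay between 0.43 and 80.7 TPM in HEP and between 0.77 and 52.8 TPM in HFD. HEP replicates 1 and 3 and HFD replicate 3 were thus rich in lymphocyte markers. The sum of 15 skeletal muscle markers ranged from 65.3 to 16551 TPM in HEP, with the highest value in replicate 2, and from 103 to 789 TPM in HFD, and Ckm, the muscle creatine kinase, from 0.17 to 2100.3 TPM in HEP and from 2.93 to 90.8 TPM in HFD. The sum of 10 liver markers ranged from 301 to 3926 TPM in HEP, highest in replicate 2, and from 320 to 2539 TPM in HFD, highest in replicate 1, and Alb, the gene for albumin, from 9.2 to 1024 TPM in HEP and from 27.5 to 664 TPM in HFD. The sum of 9 endothelial markers was 791, 823 and 794 TPM in HEP and 964, 1046 and 904 TPM in HFD, with the HEP libraries below all HFD libraries and 9 of 9 markers lower in mean in HEP. As deposited, 7 of the 10 members were also lower in mean in HEP, but only Klf15 without overlap. The part of endothelial content in their differences was not tested. Keratinocyte markers summed to at most 7.43 TPM in HEP and 6.89 TPM in HFD, with Krt14 listed at 0 in the 3 HEP libraries.

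The comparison asked whether hesperidin on top of a high-fat diet was accompanied by other levels of these factors, and no factor passed the test. In limma on log2(TPM + 1), with Benjamini-Hochberg adjustment over all 15446 genes and a threshold of 0.05, 0 of 10 members were called, and 0% of all tested genes were. At an unadjusted limma p under 0.05 there were 0 members, against 1.81% of all genes (279). Mean log2 values were lower in HEP for 7 members and higher for 3 (Cebpd, Ebf1 and Stat5a), beside 41.4% of all tested genes with a lower and 58.6% with a higher HEP mean. That split moved with the scaling, to 10 lower and 0 higher after median-of-ratios scaling or quantile normalization and to 4 lower and 6 higher after scaling to adipocyte markers. Set against the median log2 fold change of all tested genes under the same scaling, 10 members lay below it as deposited and after median-of-ratios scaling, and 9 after each of the other scalings. The median log2 fold change of the members was -0.26, and that of all tested genes was 0.07. All 3 HEP values lay below all 3 HFD values for 1 member, Klf15, as for 3.58% of all genes, and above them for 0 members, as for 1.88% of all genes.

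**Figure D1:**
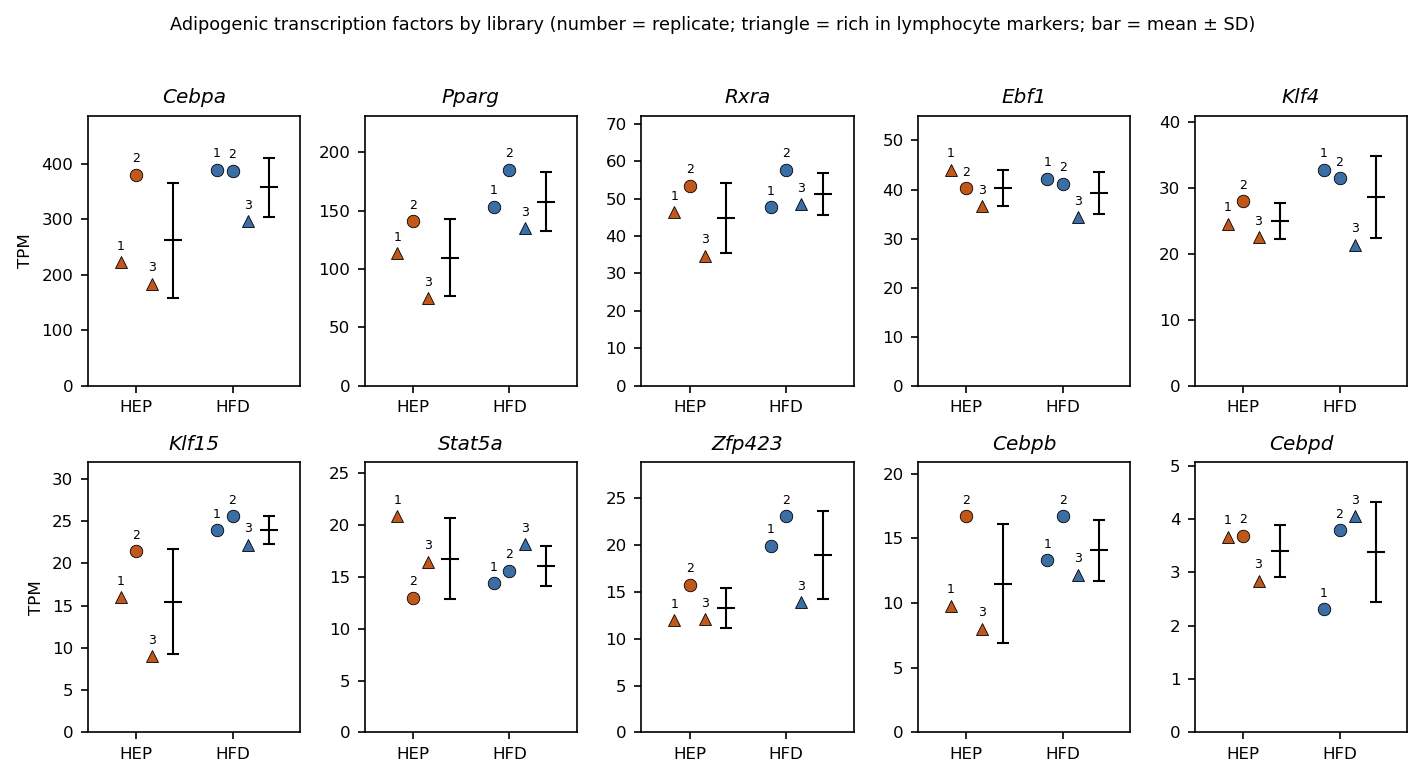
TPM of each factor in each library, HEP left of HFD, in panels from the highest to the lowest mean level. Each point is 1 library with its replicate number, triangles are libraries rich in lymphocyte markers, and the bar beside each group is the mean ± SD (n = 3). Klf15 is the panel in which the groups do not overlap, with HEP values up to 21.4 TPM and HFD values from 22.2 TPM.

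Klf15 (ENSMUSG00000030087), the Krüppel-like factor that activates Pparg in differentiating fat cells and amino acid breakdown in muscle and liver, had the largest difference of the 10. It had 16.0, 21.4 and 9.0 TPM in HEP replicates 1 to 3, against 23.9, 25.5 and 22.2 TPM in HFD replicates 1 to 3. The HFD values lay close together and the HEP values were spread, with replicate 3 far below and replicate 2 just below the HFD range. The means were 15.5 ± 6.22 TPM in HEP and 23.9 ± 1.67 TPM in HFD (SD, n = 3 each). The log2 fold change was -0.67 ± 0.31 (SE, 95% interval -1.41 to 0.07), and limma gave it an adjusted p of 0.879 (0.0681 before adjustment). Without HEP replicate 3 the log2 fold change was -0.35.

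Pparg (ENSMUSG00000000440), which encodes the receptor that drives fat cell formation, was lower in mean in HEP with overlapping groups. Its levels were 113, 141 and 74.9 TPM in HEP and 153, 185 and 135 TPM in HFD. HEP replicate 2 lay within the HFD range and above HFD replicate 3. The means were 109.8 ± 33.2 TPM in HEP and 158 ± 25.4 TPM in HFD (SD, n = 3 each), a log2 fold change of -0.55 ± 0.26 (SE, 95% interval -1.18 to 0.08), with a limma adjusted p of 0.879. Without HEP replicate 3 the log2 fold change was -0.30.

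Cebpa (ENSMUSG00000034957), whose product C/EBPα sustains PPARγ and insulin sensitivity in the mature fat cell, was the most abundant member. It had 223, 381 and 184 TPM in HEP and 390, 388 and 297 TPM in HFD. HEP replicate 2 was close to the 2 highest HFD libraries, and the other 2 HEP libraries were below all HFD libraries. The log2 fold change was -0.51 ± 0.29 (SE, 95% interval -1.22 to 0.21; limma, adjusted p = 0.879), and it was -0.81 without HEP replicate 2 and -0.29 without HEP replicate 3. Rxra (ENSMUSG00000015846), the partner receptor of PPARγ, had 46.3, 53.4 and 34.7 TPM in HEP and 47.6, 57.7 and 48.5 TPM in HFD. One HEP library, replicate 3, was well below the rest, and the log2 fold change of Rxra was -0.21 ± 0.20 (SE; limma, adjusted p = 0.879), or -0.04 without that library.

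Zfp423 (ENSMUSG00000045333), the zinc finger factor of committed preadipocytes, had 12.0, 15.8 and 12.1 TPM in HEP and 19.9, 23.1 and 13.9 TPM in HFD. The groups overlapped only through HFD replicate 3, which lay below HEP replicate 2. Its log2 fold change was -0.46 ± 0.23 (SE, 95% interval -1.03 to 0.10; limma, adjusted p = 0.879), and it lay between -0.66 and -0.32 when any 1 library was left out.

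The early C/EBP factors Cebpb and Cebpd had the lowest levels of the 10. Cebpb (ENSMUSG00000056501), an early activator of Pparg and Cebpa, had 9.77, 16.7 and 8.01 TPM in HEP and 13.3, 16.7 and 12.2 TPM in HFD, and its log2 fold change was -0.32 ± 0.29 (SE; limma, adjusted p = 0.879), or -0.60 without HEP replicate 2 and -0.11 without HEP replicate 3. Its highest values, in HEP replicate 2 and HFD replicate 2, were nearly equal, so the groups overlapped. Cebpd (ENSMUSG00000071637), its early partner and the lowest of the 10, had 3.67, 3.69 and 2.84 TPM in HEP and 2.31, 3.79 and 4.05 TPM in HFD, with a log2 fold change of 0.02 ± 0.26 (SE; limma, adjusted p = 0.985). The HFD values enclosed the HEP values on both sides. The 95% interval of Cebpd, from -0.61 to 0.65, leaves room for a difference in either direction. In the GENCODE M21 annotation, 20.7% of the exonic length of Cebpb lies opposite exons of Tmem189 (mean 41.1 TPM), and 15.0% of that of Cebpd opposite Spidr (mean 4.73 TPM). The overlap was 1.93% for Cebpa with Gm45091 and 1.01% for Stat5a with Stat3, and none was annotated for the other 6 members. Strandedness of the library is not stated, so reads from these stretches could not be assigned to 1 gene of each pair. Klf4 (ENSMUSG00000003032), the early Krüppel-like factor, had 24.6, 28.0 and 22.6 TPM in HEP and 32.8, 31.5 and 21.4 TPM in HFD. Its lowest value was in HFD replicate 3, so the groups overlapped, and the log2 fold change was -0.17 ± 0.21 (SE; limma, adjusted p = 0.879), or -0.35 without HFD replicate 3 and -0.06 without HFD replicate 1.

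Ebf1 and Stat5a had nearly equal group means. Ebf1 (ENSMUSG00000057098), which acts in fat precursors and is also a founding factor of B cells, had 44.0, 40.3 and 36.6 TPM in HEP and 42.2, 41.2 and 34.4 TPM in HFD. It varied least of the 10, by 1.28-fold between its highest and lowest library. Its log2 fold change was 0.04 ± 0.15 (SE, 95% interval -0.33 to 0.40; limma, adjusted p = 0.952). Its values in the libraries rich in B cell markers, 44.0, 36.6 and 34.4 TPM, overlapped the 40.3, 42.2 and 41.2 TPM of the others. After scaling to adipocyte markers they did not, with 51.1, 52.3 and 36.5 scaled TPM in the rich libraries and 35.2, 34.1 and 33.1 in the others. After that scaling 61.7% of all tested genes were likewise higher in all rich libraries, and the part of B cells in the level of Ebf1 was not tested. Cd79b, a part of the B cell receptor, had 252, 2.95 and 299.9 TPM in HEP and 1.77, 1.89 and 149 TPM in HFD. Stat5a (ENSMUSG00000004043), which carries growth hormone and prolactin signals, had 20.8, 13.0 and 16.5 TPM in HEP and 14.4, 15.6 and 18.1 TPM in HFD. Its log2 fold change was 0.04 ± 0.21 (SE, 95% interval -0.47 to 0.56; limma, adjusted p = 0.964), and its highest and lowest values were both in HEP libraries.

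**Figure D2:**
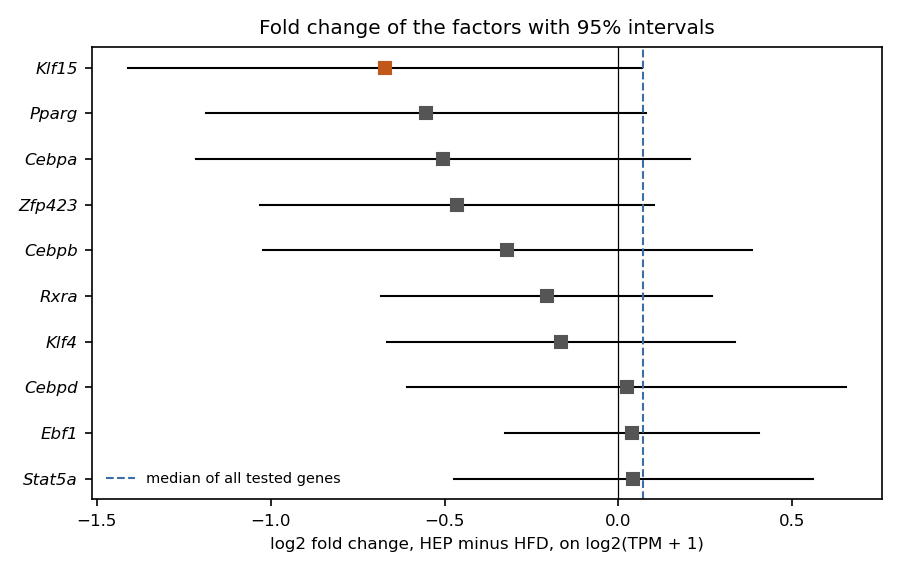
Log2 fold change of each factor, HEP minus HFD on log2(TPM + 1), with its 95% moderated interval, from the lowest to the highest. The dashed line is the median of all tested genes (0.07), and the orange square marks Klf15, the member whose groups did not overlap. All 10 intervals include 0.

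On the TPM scale, which is per transcript length, the members spanned a wide range of levels. Averaged over the 6 libraries, Cebpa had 310.5 TPM, Pparg 134, Rxra 48.0, Ebf1 39.8, Klf4 26.8, Klf15 19.7, Stat5a 16.4, Zfp423 16.1, Cebpb 12.8 and Cebpd 3.39 TPM. Pparg stood above Rxra, Ebf1 above Klf4, and Cebpb above Cebpd with separate ranges over the 6 libraries. Cebpa was above Pparg in 6 of 6 libraries although their ranges overlapped. The ranges of Klf15 and Stat5a overlapped, as did those of Stat5a and Zfp423. Klf15 was above Stat5a in 4 of 6 libraries and Stat5a above Zfp423 in 3 of 6. Klf15 was above Zfp423 in all libraries except HEP replicate 3 (9.0 against 12.1 TPM). The order of these genes was not tested. Within a library some proportions were steadier than the levels. The ratio of Cebpa to Cebpb was 22.8, 22.8 and 23.0 in HEP and 29.3, 23.2 and 24.4 in HFD, while Cebpa itself varied 2.11-fold. The ratio of Pparg to Rxra was 2.45, 2.64 and 2.16 in HEP and 3.22, 3.21 and 2.78 in HFD, so that the HEP ratios lay below the HFD ratios, a comparison named after its values were seen and not tested.

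Across libraries the members followed the adipocyte marker level in part. Pparg, Cebpa, Cebpb, Klf15 and Rxra were all lowest in HEP replicate 3, the library with the lowest adipocyte marker sum. Pparg, Cebpb, Klf15, Rxra and Zfp423 were all highest in HFD replicate 2, the library with the highest sum. In the 3 libraries rich in lymphocyte markers, Pparg, Cebpa, Cebpb, Klf4 and Zfp423 were below their values in all 3 others, 5 of 10 members, as were 13.7% of all tested genes. Stat5a was above them, 1 of 10 members, as were 30.5% of all tested genes. After adipocyte scaling, with this split of the libraries chosen after seeing the data, 0 of 10 members were below, as were 1.23% of all tested genes. Above were 4 of 10 (Cebpd, Rxra, Ebf1 and Stat5a), as were 61.7% of all tested genes. Because 2 of these 3 libraries are HEP, this content moves with the diet groups, and its part in the differences was not tested. In bulk tissue, fewer fat cells and less RNA per fat cell cannot be told apart.

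**Figure D3:**
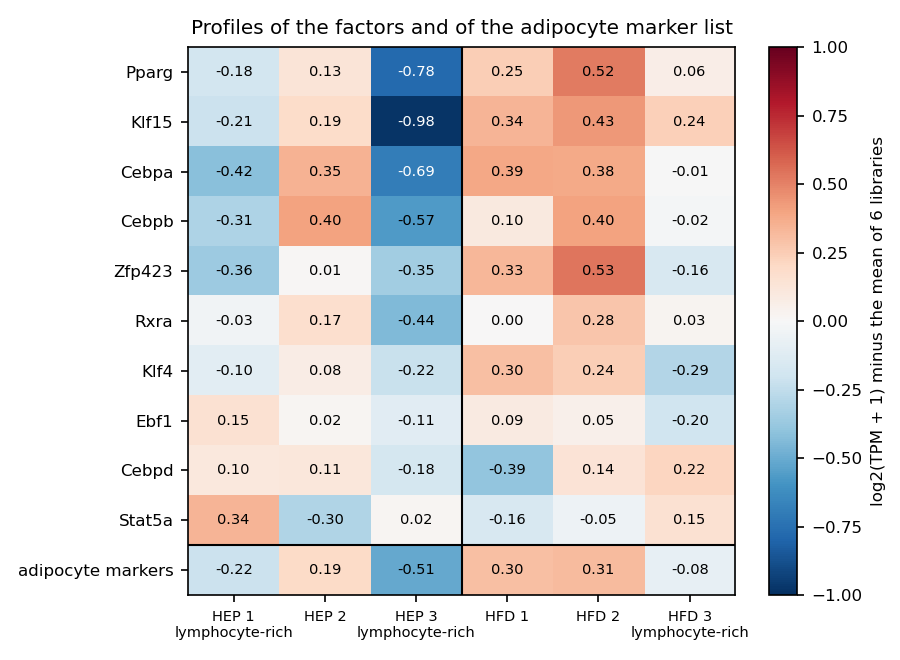
Log2(TPM + 1) of each factor in each library minus its mean over the 6 libraries, with the mean of the 15 adipocyte markers in the bottom row, and HEP libraries left of HFD libraries. Pparg and Klf15 have their deepest values in HEP replicate 3, at -0.78 and -0.98, where the adipocyte marker mean is at -0.51, while Ebf1 stays between -0.20 and 0.15.

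Set against the adipocyte markers, the log2 fold changes of Pparg, Cebpa, Klf15 and Zfp423 were smaller in size, at -0.13 for Zfp423. The median over all tested genes moved upward as well, as given below. When each library was divided by the geometric mean of its adipocyte markers, relative to the geometric mean over the libraries, Pparg had 132, 123 and 107 TPM in HEP and 124, 149 and 143 TPM in HFD, a log2 fold change of -0.20. Cebpa had 259, 333 and 263.5 scaled TPM in HEP and 315, 312 and 315 in HFD, a log2 fold change of -0.15. Klf15 had 18.5, 18.7 and 12.9 scaled TPM in HEP and 19.3, 20.5 and 23.6 in HFD, a log2 fold change of -0.34. Its highest HEP value lay just below its lowest HFD value, and the share of all tested genes without overlap after this scaling was not counted. Scaling in this way raised the median log2 fold change of all tested genes to 0.39, and the log2 fold changes of Cebpb, Klf4 and Rxra were 0.0071, 0.18 and 0.14. Those of Ebf1, Stat5a and Cebpd were 0.39, 0.38 and 0.29, near or below that median. The members' own median was 0.08, which is 0.31 below the median of all genes on the log2 scale, against 0.33 below it as deposited. With the mean of the B, plasma, T and NK cell markers as a covariate, the log2 fold change was -0.47 for Klf15, -0.36 for Pparg and -0.23 for Cebpa. With the skeletal muscle markers as a covariate, it was -0.96, -0.81 and -0.76. No member passed under either covariate, with smallest limma adjusted p-values among the members of 0.99989 and 0.431.

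**Figure D4:**
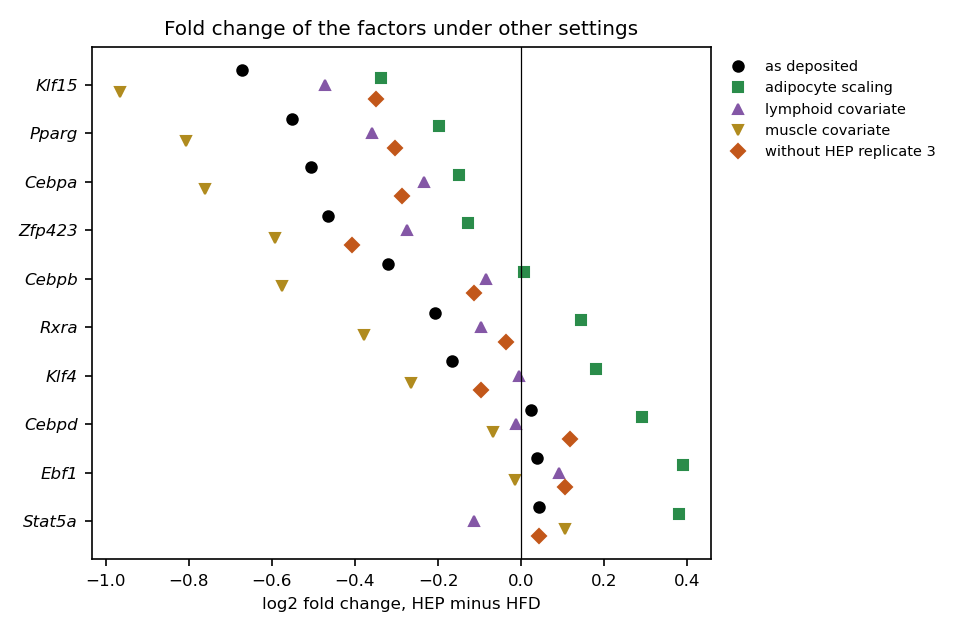
Log2 fold change of each factor, HEP minus HFD, as deposited, after adipocyte scaling, with a lymphoid or a muscle covariate, and without HEP replicate 3. Klf15, Pparg, Cebpa and Zfp423 are below 0 in all 5, and Cebpb, Rxra and Klf4 are above 0 after adipocyte scaling.

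Some members had profiles close to each other. By the root mean square difference of mean-centred log2(TPM + 1) over 6 libraries, the closest pair was Pparg and Klf15 (0.124), followed by Cebpa and Cebpb (0.137) and by Pparg and Cebpa (0.161). The differences of Pparg, Cebpa and Cebpb from the adipocyte marker mean were of like size (0.154, 0.1385 and 0.136). That of Klf15 from the same mean was larger (0.2365). Rxra differed by 0.0903 from the mean of the adipose progenitor markers. Of 8454 other genes averaging 10 TPM or more, those closest to Pparg were Lipe, the hormone-sensitive lipase (0.0721), Mmp28, a matrix metalloproteinase (0.0781), Aoc3, a copper amine oxidase abundant in fat (0.0802), Gpat3, an enzyme of triglyceride synthesis (0.0829), and Slc7a10, an amino acid transporter of white fat cells (0.086). Those closest to Cebpa were S100a1, a calcium-binding protein (0.0501), Prdx6, a peroxiredoxin (0.0529), and Iftap (0.0584). Those closest to Klf15 were Kcns3, a potassium channel subunit (0.112), Gnb5, a G protein subunit (0.123), and Mmp28 (0.140). These likenesses describe 6 libraries that differed in cell content, and its part in them was not tested.

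Targets of PPARγ, C/EBP and KLF15 were mostly lower in mean in HEP as deposited, with fewer of them lower after adipocyte scaling, and 0 genes of any list passed in limma. Among PPARγ targets of fat cells 23 of 24 tested genes were lower in HEP by their mean, and the median log2 fold change was -0.36 beside 0.07 for all genes, and 4 had an unadjusted p under 0.05, beside 1.81% of all genes. After adipocyte scaling 12 of 24 were lower, and 23 of 24 lay below the median of all genes under each of the scalings. For 5 of them, Lpl, Mgll, Acsl1, Me1 and Cidea, named after their values were seen, the HEP values lay below all HFD values, beside 3.58% of all genes. Mgll, the monoacylglycerol lipase, had 318, 415 and 293 TPM in HEP and 483, 551 and 470.0 TPM in HFD, a log2 fold change of -0.56 ± 0.18 (SE; limma, adjusted p = 0.879). Lpl, the lipase that takes up fat from the blood, had 2584, 3389 and 2786 TPM in HEP and 4299, 4719 and 4078 TPM in HFD, a log2 fold change of -0.59 ± 0.22 (SE; limma, adjusted p = 0.879). These 2 had the smallest p-values of the list. Several genes of this list are also in the adipocyte marker list, whose sum differed between libraries as given above. Of the adipocyte markers 15 of 15 were lower in mean in HEP as deposited, with a median log2 fold change of -0.37. All 15 lay below the median of all genes under each of the scalings. A lower mean was thus not particular to the targets of these factors. The adipocyte scaling is made from that marker list, so the count lower after it is in part set by the scaling itself.

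Among C/EBP targets 12 of 13 tested genes were lower in HEP by their mean, and their median log2 fold change was -0.37. After adipocyte scaling 7 were lower, and 12 of 13 lay below the median of all genes under each of the scalings. Several of the 14 genes listed also stand in other lists, where they fill 9 entries, so this is not a separate set. Some of them are adipocyte markers, so the count lower after adipocyte scaling is in part set by the scaling itself. Lcn2, a lipocalin of the acute phase, had 0.61, 1.38 and 1.18 TPM in HEP and 6.13, 3.47 and 1.48 TPM in HFD, without overlap and at low levels. Lep, the gene for leptin, had 710, 1016 and 733 TPM in HEP and 991, 1662 and 1182 TPM in HFD. Of the KLF15 targets, known from muscle, liver and fat, 5 of 5 tested genes were lower in HEP by their mean, and their median log2 fold change was -0.31. After adipocyte scaling 2 were lower, and 5 of 5 lay below the median of all genes under each of the scalings. Gpt, the alanine aminotransferase, had 42.9, 60.3 and 40.8 TPM in HEP and 81.9, 88.2 and 71.6 TPM in HFD, and no HEP value reached the lowest HFD value. The log2 fold change of Gpt was -0.75 ± 0.19 (SE), and limma gave it an adjusted p of 0.879 (0.00712 before adjustment). Bcat2, which starts the breakdown of branched-chain amino acids, had 67.2, 73.9 and 50.4 TPM in HEP and 79.7, 85.8 and 70.1 TPM in HFD.

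STAT5 targets showed the opposite sign in mean, with 6 of 8 tested genes higher in HEP, beside 58.6% of all tested genes. Their median log2 fold change was 0.51, beside 0.07 for all genes. After median-of-ratios scaling and quantile normalization 6 were also higher. After adipocyte scaling, where 9 were tested, 9 were higher, but the median of all genes was then 0.39. Under each of the scalings 2 lay below the median of all genes. Cish, a STAT5 target named after its values were seen, was lower in mean in HEP, with a log2 fold change of -0.12. Bcl6, a repressor induced by cytokines and also a factor of germinal centre B cells, had 19.1, 11.1 and 24.7 TPM in HEP and 9.71, 9.18 and 12.9 TPM in HFD, and was highest in the 3 libraries rich in lymphocyte markers. Socs3, a feedback inhibitor of cytokine signals, had 11.01, 4.27 and 7.91 TPM in HEP and 3.61, 3.41 and 7.31 TPM in HFD, again highest in those 3 libraries. Stat5b, the close relative of Stat5a, had 28.3, 25.3 and 23.2 TPM in HEP and 16.2, 19.4 and 21.6 TPM in HFD. Its groups did not overlap and its log2 fold change was 0.41 ± 0.17 (SE; limma, adjusted p = 0.879), while that of Stat5a was 0.04. Stat5a and Stat5b are similar in sequence, so the authors' counting could split reads between them.

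Other regulators of fat cell formation had small medians. Of the other pro-adipogenic regulators 13 of 21 tested genes were lower in HEP by their mean, their median log2 fold change being -0.06, and of the anti-adipogenic regulators 11 of 25 were, with a median of 0.08. After adipocyte scaling 2 of the 21 and 3 of the 25 were lower, and after quantile normalization 15 of each. Fos, the immediate early factor, had 17.0, 22.5 and 17.9 TPM in HEP and 33.6, 32.6 and 22.9 TPM in HFD. Nr4a1, an orphan nuclear receptor and immediate early gene, went the other way in mean, with 9.62, 13.1 and 10.8 TPM in HEP and 3.74, 5.78 and 8.64 TPM in HFD. Neither gene's groups overlapped, and both had a limma adjusted p of 0.879. Id3, an inhibitor of helix-loop-helix factors, had 113, 112 and 89.9 TPM in HEP and 126, 129 and 120.2 TPM in HFD. Dlk1, the preadipocyte inhibitor Pref-1, had 0.82, 1.26 and 0.28 TPM in HEP and 2.94, 2.03 and 1.14 TPM in HFD.

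Relatives and partners of the members were mostly present. Among the partners and paralogs of RXR 5 of 12 tested genes were lower in HEP by their mean, their median log2 fold change being 0.09, and among the family members of the factors 8 of 22 were, with a median of 0.13. After adipocyte scaling 1 and 2 of them were lower, and after quantile normalization 7 and 11. Rxrb, the second retinoid X receptor, had 26.4, 19.4 and 23.3 TPM in HEP and 15.3, 15.7 and 19.5 TPM in HFD, a log2 fold change of 0.43 ± 0.18 (SE; limma, adjusted p = 0.879), with overlapping groups. Stat2, which carries interferon signals, had 32.4, 15.3 and 18.9 TPM in HEP and 16.3, 12.4 and 14.6 TPM in HFD. The following relatives were named after their values were seen. Rxrg, the third retinoid X receptor, had 8.21, 13.7 and 5.94 TPM in HEP and 10.6, 11.5 and 10.2 TPM in HFD. Ebf2, a relative of Ebf1 and a marker of brown and beige precursors, had 6.04, 8.04 and 4.75 TPM in HEP and 8.99, 10.4 and 5.74 TPM in HFD. Thra, a thyroid hormone receptor, had 41.2, 40.9 and 34.4 TPM in HEP and 53.2, 49.4 and 41.6 TPM in HFD, without overlap. Cebpg, a C/EBP relative that lacks an activation domain, had 37.96, 30.1 and 31.7 TPM in HEP and 32.1, 31.8 and 29.6 TPM in HFD.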

How the data were processed

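The deposited table held TPM per gene and sample and the mean TPM of each group, made by the authors. Per the submitters' processing notes, HISAT2, StringTie, RSEM, fastp and DESeq2 were among the tools, and neither their roles nor their versions are known. The genome build, annotation and strandedness were not given in the sources used here. TPM keeps no depth, and a rise of abundant transcripts lowers all other values of a library. Samples were grouped by their titles. Both groups were fitted with limma 3.58.1 under R 4.3.3 on log2(TPM + 1) with an intensity trend, over 15446 genes averaging 1 TPM or more, with moderated standard errors and 95% intervals, two-sided, with Benjamini-Hochberg adjustment and a threshold of 0.05. A fold change on this scale understates that of low genes. The fit was tested on simulated data. No set test was run: lists are described by counts and medians.

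The members and the lists were chosen with earlier results of these data known. Named genes were the members, the 2 smallest p of each other list, 5, 3 and 3 genes nearest to Pparg, Cebpa and Klf15, and fixed markers. Gene overlaps came from GENCODE M21, which held 51884 of 57180 gene IDs, and promoter windows from RefSeq. The alternatives were other pseudocounts, filters, scalings, weights, covariates, a replicate block and leaving out each library. Fits within the libraries low or rich in lymphocyte markers were chosen after seeing the data. Gyk was not analysed here. No protein sequences were used here.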

Additional observations from a re-analysis of the deposited data

How the results depend on the processing

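No member passed under any of 20 alternatives, and every log2 fold change of Pparg, Cebpa, Klf15 and Zfp423 stayed below 0 in them, with ranges of -0.93 to -0.20, -0.86 to -0.03, -1.13 to -0.20 and -0.66 to -0.13. The ranges with 1 library left out were -0.75 to -0.30, -0.81 to -0.29, -0.93 to -0.35 and -0.66 to -0.32. In all, 28 of 199 values of single members changed sign, and all of them concerned the other 6 members, whose differences were small. The cause was not tested. With adipocyte scaling the log2 fold changes turned to 0.0071 for Cebpb, 0.18 for Klf4 and 0.14 for Rxra. With median-of-ratios scaling they turned to -0.018 for Cebpd, -0.018 for Ebf1 and -0.014 for Stat5a. Quantile normalization gave -0.16 for Cebpd, -0.048 for Ebf1 and -0.11 for Stat5a. Sample quality weights gave -0.11 for Cebpd and -0.051 for Ebf1. The lymphoid covariate gave -0.012 for Cebpd and -0.11 for Stat5a, and the muscle covariate -0.067 for Cebpd and -0.014 for Ebf1. Leaving out 1 library at a time gave -0.60 to -0.11 for Cebpb, -0.35 to -0.06 for Klf4, -0.34 to -0.04 for Rxra, -0.17 to 0.14 for Cebpd, -0.051 to 0.11 for Ebf1 and -0.12 to 0.20 for Stat5a. Within the libraries low in lymphocyte markers, where HEP replicate 2 stands alone and is assumed to vary like the others, the values turned to 0.15 for Cebpb, -0.048 for Ebf1, 0.026 for Rxra and -0.19 for Stat5a. Within the rich libraries, where HFD replicate 3 stands alone, they turned to -0.25 for Cebpd and 0.13 for Klf4.

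Over all genes, the counts passing were 0 higher and 0 lower, as in all other alternatives except 2. Without HEP replicate 2 the count was 1 higher gene, so leaving out 1 library gave 0 to 1 higher and 0 to 0 lower genes. Within the rich libraries 12 genes were higher and 24 lower, on 3 libraries. At an unadjusted p under 0.05, 6 members passed with sample quality weights and 6 with the muscle covariate, with at most 4 in the others, and the smallest adjusted p of a member was 0.12 with the weights, 0.193 without HEP replicate 2, and 0.431 or more in the others. With the replicate number as a block 0 genes passed, Pparg had an unadjusted p of 0.0181 and Klf15 one of 0.0465, both with adjusted p = 0.753. Same-numbered samples did not deviate together throughout (correlations of deviations from the group means of -0.36, 0.37 and 0.65), and not every sample correlated best with its own number. The numbers are not stated to pair the samples. With 3 libraries a group that differ in cell content, these correlations cannot decide whether they do. The limits are 3 samples a group, unknown depth and cell content that differed between libraries.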
